A study of Mus musculus with 24 samples.

Results

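Phase II conjugation enzymes join a polar group to drugs, hormones, bilirubin and other lipophilic molecules, so that these can leave the cell and be excreted in bile or urine. The genes described here are the UDP-glucuronosyltransferases (UGT), the cytosolic sulfotransferases (SULT) and the soluble glutathione S-transferases (GST, with the kappa class of mitochondria and peroxisomes) of the mouse. They were chosen by symbol, as every gene whose name begins with Ugt1, Ugt2 or Ugt3, with Sult and a digit, or with Gst, a class letter (a, k, m, o, p, t or z) and a digit, without names that carry -ps. This gave 65 genes, of which 21 are UGT, 21 are SULT and 23 are GST. Of these, 64 were listed among the 31053 genes of the hepatocyte table, 62 among the 25876 genes of the cholangiocyte table and 51 among the 20729 genes of the Smart-Seq table, and 50 were listed in all 3.

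All cells came from adult wild-type BALB/c mice, which the study lists as male. Primary hepatocytes (Pri-Hep) were enriched on a Percoll gradient and by removal of EpCAM+ cells, and were grown in Matrigel as hepatocyte organoids (Hep-Orgs) in a hepatocyte medium with the Notch pathway inhibitor DAPT and dexamethasone. Pri-Hep and Hep-Orgs at passages P1, P5 and P10 make up the hepatocyte table, and cholangiocyte organoids (Cho-Orgs) grown from EpCAM+ cells at P0, P5 and P10 make up the cholangiocyte table, with 3 bulk poly(A) libraries in each group. Cho-Orgs were grown in another medium, without DAPT and dexamethasone and with forskolin, Wnt3a and Noggin. Cell source and medium thus differ together between these tables and cannot be told apart. The Smart-Seq table holds Hep-Orgs of 3 shapes, grape-like, round-like and intermediate, with 1 library for each, picked at P0 from the hepatocyte medium before DAPT and dexamethasone were brought in, so its differences have no replicate check. The replicate number of a bulk library is described as marking its mouse. Titles of Cho-Orgs end in the letter M and this number, without saying what M stands for, and hepatocyte titles end in the number alone. The p-values measure the spread between these libraries. Where the replicate number as a block changes the call of a gene named here, that value is given.

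Values are FPKM, fragments scaled to gene length and to the size of the library, which can be set beside each other between genes of a table. The 3 tables were normalized separately, and levels set side by side across them were not tested. The hepatocyte libraries held 14068906 to 27160365 fragments, whereas estimates of 37470000 to 39930000 fragments were obtained for Cho-Orgs and of 40040000 to 40380000 for the Smart-Seq libraries. The labels of Pri-Hep and of Hep-Orgs go against the markers of their libraries. In the libraries labelled Pri-Hep, the hepatocyte gene Alb was at 112 ± 7.99 FPKM, the cholangiocyte genes Krt19 and Spp1 were at 237 ± 6.66 and 3144 ± 56.7 FPKM (mean ± SD, n = 3), Serpina1c was at 0 in all 3 and Cyp2e1 was at or near 0. The summed FPKM of 10 hepatocyte markers was 599.6 to 659.7 and that of 7 cholangiocyte markers was 3659.7 to 3880.1 over all 12 libraries of this table, and the hepatocyte sum of the libraries labelled Pri-Hep (599.6 to 632.2) overlapped that of Hep-Orgs. The same hepatocyte sum in Cho-Orgs was 6409 to 7321 at P0, 199.7 to 242.7 at P5 and 77.8 to 83.5 at P10, beside cholangiocyte sums of 4994 to 6371, 3309 to 3449 and 3129.7 to 3166.3. The cholangiocyte markers did not move together, with Spp1 at 3682 ± 837, 805 ± 34.2 and 527 ± 2.98 FPKM, whereas Krt7 had 248 ± 19.6, 689 ± 24.9 and 919.7 ± 5.4 FPKM and Krt19 rose at P10 as well (log2 fold change 0.43 against P0, limma, adjusted p = 0.000103).

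UGT enzymes sit in the endoplasmic reticulum and transfer glucuronic acid from UDP-glucuronate. The UGT1 enzymes are made from 1 locus in which alternative first exons are joined to a shared end. Most UGT2 enzymes come from separate genes, whereas Ugt2a1 and Ugt2a2 overlap on chromosome 5, and UGT3 enzymes use other sugars. SULT enzymes transfer sulfate from the donor PAPS to phenols (SULT1) or to steroids and bile acids (SULT2). GST enzymes join glutathione to electrophiles, and their classes are named alpha, kappa, mu, omega, pi, theta and zeta. In the adult liver, hepatocytes carry most of these activities, while the pi class is known as abundant in cholangiocytes.

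Several of these genes are close copies of each other, which limits how well short reads can be assigned to them, and the pi class shows this best. The 3 stretches below are the first 120 coding bases of Gstp1, Gstp2 and Gstp3, read from the GENCODE M21 transcripts on GRCm38. Capitals mark the bases that differ from Gstp1.
Gstp1: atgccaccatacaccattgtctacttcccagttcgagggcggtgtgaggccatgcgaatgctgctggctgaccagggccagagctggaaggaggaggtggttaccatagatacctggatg
Gstp2: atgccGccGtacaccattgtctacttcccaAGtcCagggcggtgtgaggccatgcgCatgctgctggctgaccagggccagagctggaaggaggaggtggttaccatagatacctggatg
Gstp3: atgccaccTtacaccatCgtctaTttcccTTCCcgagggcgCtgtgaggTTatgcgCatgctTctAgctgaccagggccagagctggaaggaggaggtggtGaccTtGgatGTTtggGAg
Gstp2 differed from Gstp1 at 6 of these bases and was identical at 618 of 630 bases of the coding sequence (98.1%), whereas Gstp3 differed at 21 of the bases shown and was 73.7% identical over the aligned coding sequences. Of the 64 genes with a transcript, 42 shared no stretch of 150 bases with any other gene, 4 shared up to 10% of their stretches and 18 shared more. The 18 include Gsta1, Gstp1, Gstp2, Sult2a2 and Ugt2b5 and the Ugt1a genes with their shared exons, and their values are uncertain where reads were shared. Gsta1 and Gsta2 were 97.6% identical in the coding sequence and shared such stretches. Ugt2b5 and Ugt2b36 were 88.6% identical but shared none with each other, and Ugt2b5 shared its stretches with Ugt2b38. Ugt2b36, Sult1d1, Sult1a1, Gsto1, Gstm7 and Gstp3 shared no such stretch with any gene.

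Upstream sequence is shown for 4 genes that the levels turn on, namely the bilirubin enzyme Ugt1a1, the leading sulfotransferases Sult1d1 and Sult1a1, and Gsto1, which rose most in Cho-Orgs at P5. Each is the 250 bases before the RefSeq start site (GRCm38.p6), read in the direction of the gene, and that start lay 0, 21, 14 and 3 bases from the start of the annotated gene for Ugt1a1, Sult1d1, Sult1a1 and Gsto1. Capitals mark GTTAAT or its complement ATTAAC (an arm of the palindrome that HNF1 factors bind) and GCGTG or CACGC (the core of the xenobiotic response element).
Ugt1a1, chr1:88211709-88211958, + strand: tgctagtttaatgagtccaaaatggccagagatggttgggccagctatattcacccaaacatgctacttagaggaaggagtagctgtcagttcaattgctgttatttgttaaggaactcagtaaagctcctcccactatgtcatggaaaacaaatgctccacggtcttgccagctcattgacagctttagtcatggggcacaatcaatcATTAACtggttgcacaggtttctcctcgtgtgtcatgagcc
Sult1d1, chr5:87569007-87569256, - strand: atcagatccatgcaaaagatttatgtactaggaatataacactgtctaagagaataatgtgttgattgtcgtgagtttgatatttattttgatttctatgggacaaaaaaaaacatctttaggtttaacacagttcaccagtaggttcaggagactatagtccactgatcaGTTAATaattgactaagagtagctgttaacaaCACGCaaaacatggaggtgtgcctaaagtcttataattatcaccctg
Sult1a1, chr7:126676419-126676668, - strand: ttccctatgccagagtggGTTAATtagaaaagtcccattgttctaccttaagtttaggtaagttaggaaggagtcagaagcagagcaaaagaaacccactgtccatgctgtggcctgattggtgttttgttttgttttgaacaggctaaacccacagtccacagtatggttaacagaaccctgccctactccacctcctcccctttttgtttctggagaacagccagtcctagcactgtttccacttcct
Gsto1, chr19:47854723-47854972, + strand: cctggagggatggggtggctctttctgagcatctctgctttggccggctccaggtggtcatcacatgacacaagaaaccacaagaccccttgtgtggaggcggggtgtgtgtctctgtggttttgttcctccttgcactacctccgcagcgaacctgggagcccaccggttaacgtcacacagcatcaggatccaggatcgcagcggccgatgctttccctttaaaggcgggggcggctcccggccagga
The HNF1 arm lay 41 to 36 bases before the start in Ugt1a1, 79 to 74 bases in Sult1d1 and 232 to 227 bases in Sult1a1, and the window of Gsto1 held none of the motifs searched. The HNF1 arm, on either strand, was in 20.9% of the 67 RefSeq windows of 56 of the 65 genes and in 6.43% of all 32851 windows. The xenobiotic core was in 16.4% of the 67 windows and 28.2% of all. The core of the antioxidant response element, TGACNNNGC, was in 4.48% and 10.2%, and within the genes described it was found for Gsta3, Gstm5 and Gstm7. These matches describe letters in these windows and not sites that a factor was shown to bind.

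Levels across all groups were dominated by few genes. In the hepatocyte table, 29 of 64 genes reached 1 FPKM in at least 3 libraries and 8 had a mean of at least 100 FPKM, whereas 18 stayed below 1 FPKM in every library and 15 were at 0 throughout. Among Cho-Orgs libraries, 34 of 62 genes passed the same filter, 7 had a mean of at least 100 FPKM and 8 were at 0 throughout, and in the Smart-Seq libraries 26 of 51 passed, 6 had such a mean and 1 was at 0 throughout. The genes at 0 in all 12 hepatocyte libraries were Sult1c1, Sult2a3 to Sult2a8, Sult3a1, Sult3a2, Sult5a1, Ugt1a8, Ugt1a10, Ugt2a1, Ugt2b37 and Ugt3a1. Ugt3a2 had 1 fragment in 1 hepatocyte library, and the UGT3 genes were at 0 in the cholangiocyte table.

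**Figure D1:**
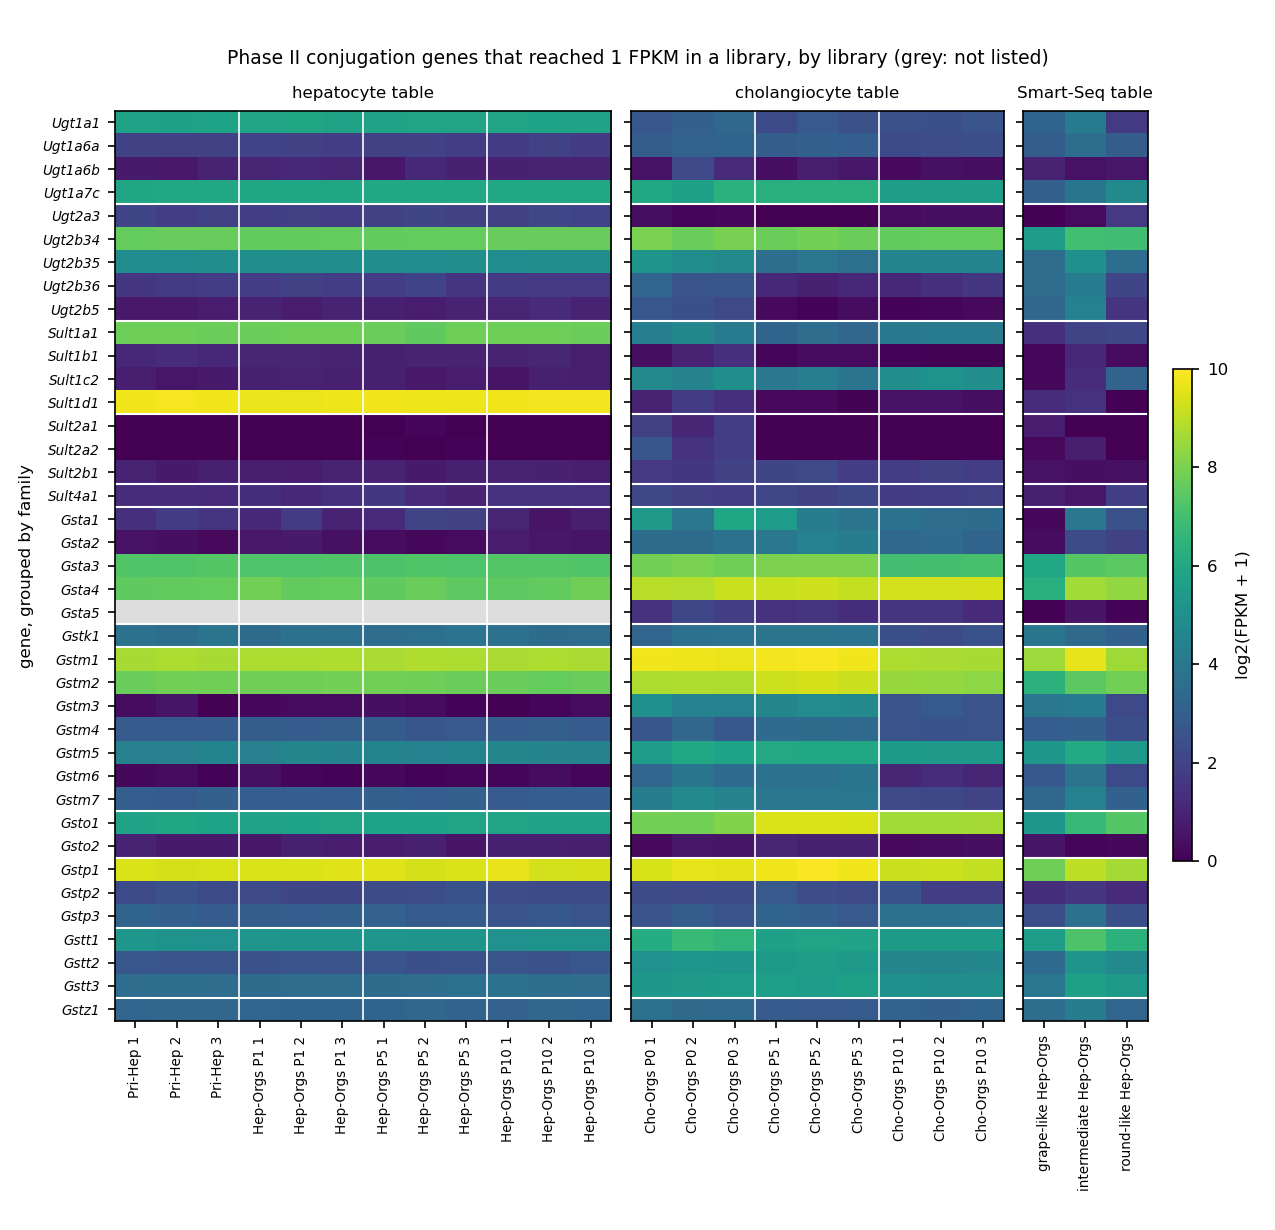
Level of each gene that reached 1 FPKM in a library, as log2(FPKM + 1) by colour, with genes in rows grouped by family and libraries in columns grouped by table. The 12 hepatocyte libraries look alike from Pri-Hep to P10, Sult1d1 is bright in that table alone, and the columns of Cho-Orgs differ between P0, P5 and P10 in rows such as Gstm3, Gstm6, Gsto1 and Ugt2b5.

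The SULT sum set the tables apart most. Summed over all SULT genes, it was 1122 ± 21.6 FPKM in Pri-Hep, 1070.1 ± 8.77 in Hep-Orgs at P1, 1075 ± 15.1 at P5 and 1122 ± 7.39 at P10 (mean ± SD, n = 3 in each group). In Cho-Orgs the SULT sum was 59.1 ± 2.43 at P0, 31.7 ± 3.98 at P5 and 52.8 ± 3.25 FPKM at P10, and for Smart-Seq it was 5.59 FPKM with grape-like, 9.38 with intermediate and 14.7 with round-like shape. The high sums of the hepatocyte table rested on Sult1d1 and Sult1a1. The GST sum was between 1844 ± 12.4 FPKM in Pri-Hep and 1913 ± 30.9 FPKM in Hep-Orgs at P1, and in Cho-Orgs it was 3407 ± 113 at P0, 4326 ± 205 at P5 and 2702 ± 33.5 FPKM at P10. The UGT sum was nearest across the bulk groups, from 349 ± 0.373 FPKM in Hep-Orgs at P1 to 361 ± 1.52 at P10 in the hepatocyte table, and 361 ± 36.7, 329 ± 19.7 and 276 ± 2.61 FPKM in Cho-Orgs at P0, P5 and P10.

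**Figure D2:**
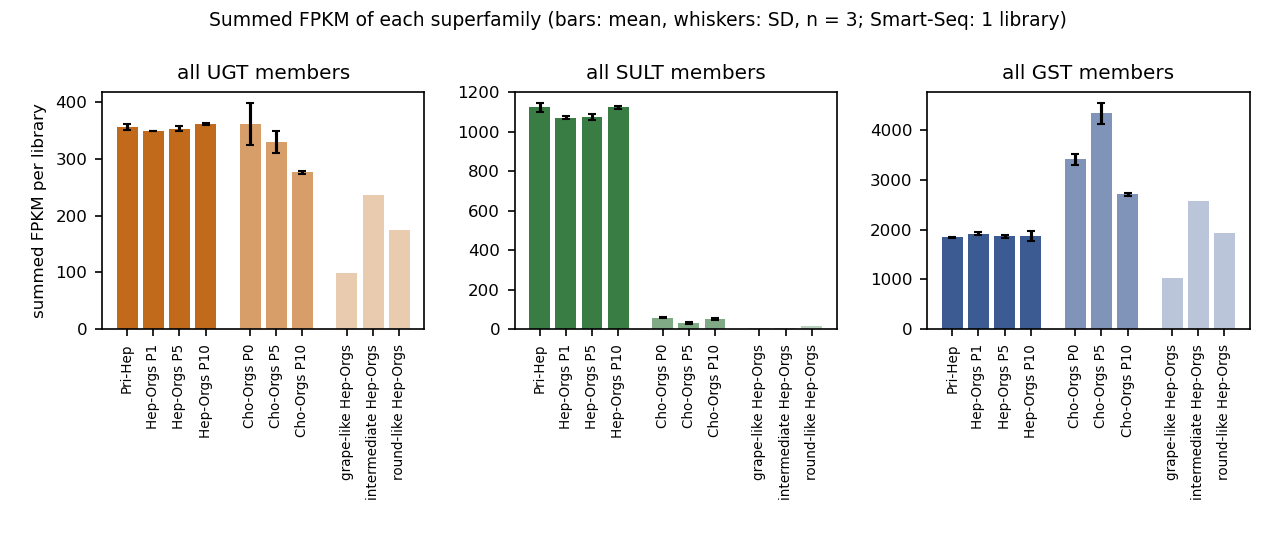
Summed FPKM of the UGT, SULT and GST genes in each group, with bars for the mean and whiskers for the SD of 3 libraries (1 library per Smart-Seq subtype, without whiskers). The SULT bars of the hepatocyte groups stand far above those of the other groups, and the GST bar of Cho-Orgs is highest at P5.

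In the hepatocyte table, the question was whether the conjugation genes keep their level from the libraries labelled Pri-Hep through 10 passages of Hep-Orgs. Of the 29 genes tested, 0 passed an adjusted p of 0.05 (limma on log2(FPKM + 1), Benjamini-Hochberg over all 10986 genes tested) in Hep-Orgs at P1, P5 or P10 against Pri-Hep, or at P10 against P1. Over all genes, 0.0091% were called at P1, 0.0091% at P5, 0% at P10 and 0% at P10 against P1, so that the absence of calls was not particular to these genes. With an unadjusted p under 0.05, 5, 3, 3 and 6 of the 29 passed in the same order, and the smallest adjusted p was 0.282, 0.306, 0.454 and 0.271. With limma-voom on the fragments recovered from FPKM and length, Sult1d1 passed at P1 against Pri-Hep with a log2 fold change of -0.09 (adjusted p = 0.00605), and Sult1d1 at 0.08 (adjusted p = 0.0151) and Ugt2b34 at 0.09 (adjusted p = 0.0287) passed at P10 against P1. No other call was made among these genes in the alternatives run on this table. Over all 10986 genes, limma-voom called 29, 34 and 0 at P1, P5 and P10 against Pri-Hep and 26 at P10 against P1.

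No gene passed in the main fit, which does not show that the groups are equal. Libraries of different groups were about as alike as replicates. Their correlation (rho) was 0.9590 to 0.9632 in 54 pairs, beside 0.9602 to 0.9639 in 12 pairs within a group. With the marker levels given above, this table cannot show whether levels were kept from primary hepatocytes. The reason for this likeness was not tested. For brevity, values are given over all 12 libraries of Pri-Hep and Hep-Orgs. Their SD and coefficient of variation therefore hold differences between groups as well as between replicates. Sult1d1 (chromosome 5, 87554645 to 87569027 on GRCm38, - strand), which sulfates dopamine and other catecholamines, was the highest at 877 ± 25.9 FPKM (mean ± SD, n = 12 libraries) and ranked 24 of all genes by mean. It had 892, 923 and 883 FPKM in Pri-Hep, 843, 843 and 854 at P1, 875, 866 and 852 at P5 and 887, 894 and 909 at P10, with the 3 values of P1 below those of Pri-Hep and P10. The phenol sulfotransferase Sult1a1 (chromosome 7, 126672865 to 126676432) had 216 ± 9.14 FPKM (lowest 189.8, median 219, highest 224), with the lowest value in a library of P5. The other SULT genes had means of at most 1.49 FPKM (Sult4a1), with 1.05 for Sult1b1, 0.842 for Sult2b1 and 0.728 for Sult1c2, and Sult2a1 and Sult2a2 had at most 2 and 1 fragments in a library, at or below the floor of 3 fragments.

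Among UGT genes of the hepatocyte table, Ugt2b34 (chromosome 5, 86889767 to 86906937) led with 199 ± 5.18 FPKM (lowest 191, median 197, highest 206). The bilirubin enzyme Ugt1a1 (chromosome 1, 88211959 to 88218997) had 54.7 ± 1.77 FPKM (lowest 51.7, median 54.6, highest 57.8). Ugt1a7c had 61.4 ± 1.67 and Ugt2b35 had 29.1 ± 1.03 FPKM (mean ± SD, n = 12). UGT2 thus outweighed UGT1 mainly through 1 gene, since Ugt2b34 held 85.3% of the UGT2 sum in Pri-Hep. Ugt2a3, Ugt1a6a and Ugt2b36 were at 2.93 ± 0.284, 2.71 ± 0.199 and 2.39 ± 0.346 FPKM, and Ugt2b5 at 0.866 ± 0.2.

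Among GST genes of that table, Gstp1 (chromosome 19, 4035407 to 4037921) led with 691 ± 47.5 FPKM and held 98.3% of the pi sum in Pri-Hep. Its values were 687, 649.7 and 674 FPKM in Pri-Hep, 698, 696 and 727 at P1, 722, 653 and 685 at P5 and 813, 639.8 and 653 at P10, with the 3 values of P1 above those of Pri-Hep, P5 and P10 overlapping both, and the highest value in 1 library of P10. Gstm1 of the mu class had 432 ± 10.9 FPKM (lowest 416, median 432, highest 451), and Gstm2 had 221 ± 12 FPKM. Gsta4, which conjugates the lipid peroxidation product 4-hydroxynonenal, was at 199 ± 15.1 and Gsta3 at 155 ± 4.46 FPKM. Gsto1 and Gstt1 were at 54.9 ± 1.49 and 34.5 ± 1.53 FPKM. Of the 21 genes with at least 100 fragments in each of the 12 libraries, the coefficient of variation over the 12 was between 2.53% and 8.02% with a median of 4.32%. Gsta1 varied most among the tested genes, with 0.449 to 3.18 FPKM (7 to 59 fragments).

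In Cho-Orgs, the question was how the conjugation genes change with passage from P0. The changes were toward lower levels at P10, with all 7 mu class GST genes tested lower, and toward both directions at P5, where Gsto1 rose by over 2-fold and Ugt2b35 and Ugt2b36 fell by over 2-fold. At P5 against P0, 9 of the 34 genes tested rose (26.5%, against 34% of all 11593 genes tested) and 11 fell (32.4%, against 22.6%). At P10 against P0, 3 rose (8.82%, against 41%) and 25 fell (73.5%, against 31.3%). At P10 against P5, 5 rose (14.7%, against 31%) and 19 fell (55.9%, against 30.5%). By at least 2-fold, 1 rose and 5 fell at P5 (against 3.24% and 4.43% of all genes), 1 rose and 11 fell at P10 against P0 (against 6.23% and 9.61%), and 0 rose and 5 fell at P10 against P5 (against 2.03% and 6.18%). The median log2 fold change of the 34 genes was 0.12 at P5 against P0, -0.43 at P10 against P0 and -0.48 at P10 against P5, beside 0.06, 0.07 and 0.01 for all genes tested.

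Sult2a1, Sult2a2 and Ugt2b5 passed the filter through P0 alone and had to differ, so their values are given without a test. The counts above include them, also the falls of at least 2-fold against P0. At P5 against P0 the other falls of at least 2-fold were those of Ugt2b35 and Ugt2b36. Among the other 31 genes, 9 rose and 8 fell at P5 against P0, 3 rose and 22 fell at P10 against P0, and 5 rose and 19 fell at P10 against P5. In either direction, 54.8%, 80.6% and 77.4% of the 31 were called, against 56.6%, 72.3% and 61.5% of all genes tested. The share called at P5 was thus near that of all genes. The comparisons at P5 and at P10 share the libraries of P0, and their values are given side by side. With other scalings, the 9 that rose and 11 that fell at P5 became 13 and 11 after rescaling to TPM and 6 and 12 with median-ratio size factors, while 60%, 66.1% and 47.2% of all called genes rose with FPKM, TPM and size factors. The median of all genes at P5 was 0.06, 0.11 and -0.01 on these scales. Of the calls, 15 of 20 at P5 against P0, 21 of 28 at P10 against P0 and 21 of 24 at P10 against P5 were called in every alternative in which the gene could be tested, and none changed sign.

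The makeup of the Cho-Orgs cultures moved with passage as well. The summed FPKM of 10 hepatocyte markers was lower at P5 and P10 as given above, and 8 of the 9 tested fell in each comparison with P0. That of 5 stellate cell markers was 60.4 to 75.1 at P0, 7.28 to 8.14 at P5 and 0.108 to 0.179 at P10. Only 1 of these 5 passed the filter, with log2 fold changes of -3.07 at P5 and -6.01 at P10 against P0. This sum thus does not show that the 5 fell together. The summed FPKM of 5 macrophage markers was 41.9 to 47.6, 71.8 to 76.9 and 9.21 to 9.88. The macrophage sum at P5 was Cd68 alone (30.4 ± 3.79 FPKM at P0, 74.5 ± 2.59 at P5 and 9.53 ± 0.34 at P10), since Adgre1, Clec4f, Lyz2 and Ptprc were at 0 there, with Lyz2 at 13.2 ± 3.17 FPKM at P0. The summed proliferation genes Mki67, Top2a and Ccnb1 were at 104 to 164 FPKM at P0, 59.5 to 63.1 at P5 and 7.13 to 8.26 at P10. The summed level of 5 sinusoidal endothelium markers was 0.0592 to 0.232 FPKM over all 9 libraries. At P10 the hepatocyte genes Cps1, Cyp2e1, Cyp3a11 and Serpina1c and the macrophage genes Clec4f, Lyz2 and Ptprc were at 0 in every library. In bulk libraries, fewer cells of a type and less RNA per cell cannot be told apart, and the part of these changes in the results on conjugation genes was not tested.

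**Figure D3:**
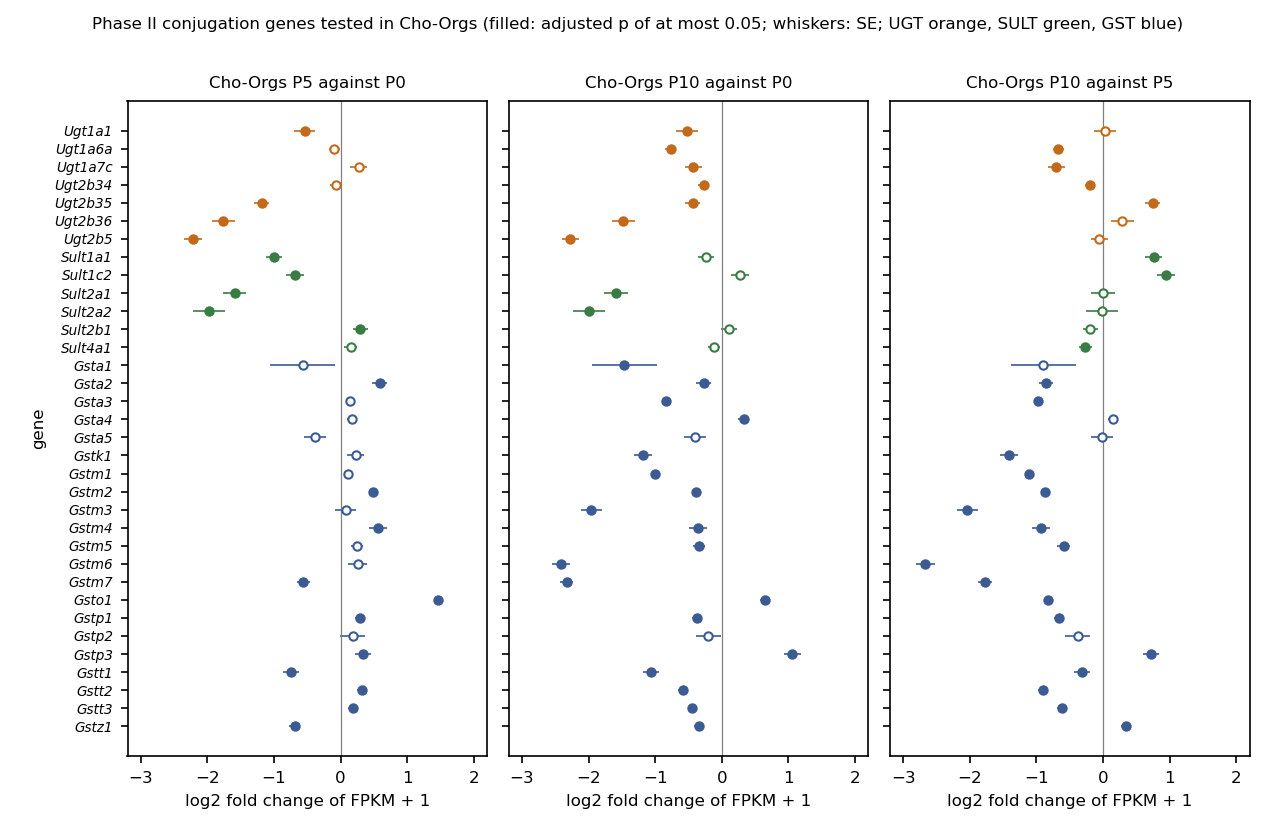
Log2 fold change on the log2(FPKM + 1) scale of the 34 genes tested in Cho-Orgs, for P5 against P0, P10 against P0 and P10 against P5, with points for the estimate, whiskers for the SE, and filled points for an adjusted p of at most 0.05. At P10 against P0, 25 filled points lie left of 0, with Gstm6 and Gstm7 farthest left, and 3 lie right of it. The 25 include Sult2a1, Sult2a2 and Ugt2b5, which passed the filter through P0 alone and had to differ, and are 22 without them.

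No UGT gene rose against P0 in Cho-Orgs. At P5 against P0, 4 of the 7 tested fell, and at P10 against P0 all 7 fell, in both counts including Ugt2b5, which had to differ. Ugt2b5 (chromosome 5, 87124960 to 87140318) had 5.59, 4.36 and 3.58 FPKM at P0, 0.182, 0.0692 and 0.276 at P5 and 0.0692, 0.127 and 0.183 at P10. Every value of P5 and P10 was below 0.3 FPKM and below every value of P0.

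Ugt2b36, a close relative of Ugt2b5, had 8.57, 5.05 and 5.37 FPKM at P0, 1.23, 0.875 and 1.24 at P5 and 1.24, 1.58 and 1.96 at P10. The log2 fold changes were -1.77 (SE 0.17, limma, adjusted p = 2.36e-05) at P5 and -1.48 (SE 0.17, limma, adjusted p = 3.28e-05) at P10, and P5 and P10 overlapped. Ugt2b35 (chromosome 5, 87000860 to 87013275) had 34.9, 30.1 and 25.1 FPKM at P0, 11.4, 14.3 and 12 at P5 and 21.5, 21.9 and 21.6 at P10. It fell at P5 (log2 fold change -1.19, SE 0.11, limma, adjusted p = 1.8e-05) and rose again from P5 to P10 (log2 fold change 0.75, SE 0.11, limma, adjusted p = 0.000295), where it stayed below P0 (log2 fold change -0.44, SE 0.11, limma, adjusted p = 0.00532), with no overlap between any pair of groups.

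Ugt2b34 was the most abundant UGT gene, with 256, 208 and 248 FPKM at P0, 216, 240.3 and 218 at P5 and 194, 196 and 196 at P10. The fall at P10 was small, with a log2 fold change of -0.27 (SE 0.078, limma, adjusted p = 0.00964) against P0, and was not called without replicate 1 (-0.21, adjusted p = 0.0772) or without replicate 3 (-0.24, adjusted p = 0.111). Against P5 it was -0.20 (SE 0.078, limma, adjusted p = 0.0475), and leaving out replicates 1, 2 and 3 in turn gave adjusted p-values of 0.0749, 0.0533 and 0.154, and the replicate block gave 0.0771. Ugt1a1, the enzyme that glucuronidates bilirubin, had 5.63, 7.27 and 9.26 FPKM at P0, 3.76, 5.89 and 4.55 at P5 and 4.64, 4.49 and 5.19 at P10. Its falls of -0.54 (SE 0.16, limma, adjusted p = 0.0179) at P5 and -0.52 (SE 0.16, limma, adjusted p = 0.0167) at P10 were not called without replicate 3, where they were -0.37 (adjusted p = 0.17) and -0.41 (adjusted p = 0.105), and the fall at P10 was not called without replicate 2 either (-0.48, adjusted p = 0.0631).

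Ugt1a7c led the UGT1 genes with 62.6, 52.2 and 81.9 FPKM at P0, 75.1, 81.5 and 78.1 at P5 and 47.3, 47.6 and 48.3 at P10. It fell at P10 against P5 (log2 fold change -0.70, SE 0.13, limma, adjusted p = 0.00103) and against P0 (log2 fold change -0.42, SE 0.13, limma, adjusted p = 0.013), the latter not without replicate 1 (adjusted p = 0.0659) or replicate 3 (adjusted p = 0.0628). Ugt1a6a, which acts on small phenols, had 6.74, 8.02 and 8.28, then 6.65, 7.67 and 6.94 and then 3.77, 4.18 and 4.29 FPKM, with a log2 fold change at P10 against P0 of -0.77 (SE 0.083, limma, adjusted p = 1.78e-05).

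The steroid sulfotransferases of the Sult2a genes were detected at P0 and at or near 0 afterwards. Sult2a1, which sulfates bile acids and hydroxysteroids, had 2.7, 1.13 and 2.48 FPKM at P0 and 0 in all 6 libraries of P5 and P10. Against the floor of 3 fragments per library, it was at least 27-fold lower at P5 and at least 26.8-fold lower at P10. Sult2a2 had 5.42, 1.79 and 2.52 FPKM at P0, 0, 0 and 0.0352 at P5 and 0 in the 3 libraries of P10, which is at least 30-fold lower than P0. Sult2a5 was at 0.576, 0.12 and 0.367 FPKM at P0, below the filter, and at 0 in the other 6 libraries. Sult2b1, which sulfates cholesterol, behaved otherwise, with 2.2, 2.05 and 2.86 FPKM at P0, 3.28, 3.6 and 2.55 at P5 and 2.56, 2.8 and 2.48 at P10 in overlapping groups. Its log2 fold change at P5 was 0.30 (SE 0.11, limma, adjusted p = 0.0486), with an adjusted p of 0.0777 with the replicate block.

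The SULT1 genes tested, Sult1a1 and Sult1c2, fell at P5 and rose from P5 to P10. Sult1a1 had 18.9, 23.8 and 16.6 FPKM at P0, 8.27, 10.8 and 8.96 at P5 and 15.5, 16.9 and 16.9 at P10. It fell by 1.0 on the log2 scale at P5 (SE 0.12, limma, adjusted p = 0.000105) and rose from P5 to P10 by 0.76 (SE 0.12, limma, adjusted p = 0.000495), while P10 against P0 was -0.24 (SE 0.12, limma, adjusted p = 0.106) and had an adjusted p of 0.0414 with the replicate block. Sult1c2 had 25.2, 21.1 and 30.3 FPKM at P0, 14.6, 18.4 and 13.6 at P5 and 28.8, 33.5 and 30 at P10, with a log2 fold change of -0.68 (SE 0.14, limma, adjusted p = 0.00207) at P5 and 0.95 (SE 0.14, limma, adjusted p = 0.00023) from P5 to P10. The 3 values of P5 were below all others in both genes. Sult1d1, the highest of the 65 genes in the hepatocyte table, had 0.953, 2.43 and 1.55 FPKM at P0, 0.177, 0.186 and 0.0436 at P5 and 0.394, 0.401 and 0.301 at P10 and did not pass the filter. Sult4a1 fell from P5 to P10 (log2 fold change -0.27, SE 0.094, limma, adjusted p = 0.033), which was not called when replicate 1, 2 or 3 was left out.

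All 7 mu class GST genes tested fell at P10, both against P0 and against P5. The mu sum was 1407 ± 25.5 FPKM at P0, 1661 ± 78.2 at P5 and 816 ± 24.8 at P10 (mean ± SD, n = 3 libraries). Gstm1 (chromosome 3, 108012255 to 108017973) had 869.7, 855 and 832 FPKM at P0, 910.4, 967 and 882 at P5 and 429.7, 429 and 414 at P10, with all 3 values of P10 below the other 6. Its log2 fold change at P10 was -1.0 (SE 0.048, limma, adjusted p = 6.85e-08) against P0 and -1.11 (SE 0.048, limma, adjusted p = 1.38e-07) against P5.

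Gstm3, Gstm6 and Gstm7 fell further than Gstm1 on the log2(FPKM + 1) scale. Gstm6 had 8.58, 13.9 and 10.3 FPKM at P0, 12.7, 12.6 and 13.8 at P5 and 1.1, 1.42 and 1.1 at P10, with a log2 fold change of -2.41 (SE 0.14, limma, adjusted p = 2.2e-07) at P10 against P0 and -2.67 (SE 0.14, limma, adjusted p = 3.88e-07) against P5. Gstm7 (chromosome 3, 107926334 to 107931817) had 18, 25.1 and 21 FPKM at P0, 14.1, 14 and 14.1 at P5 and 3.64, 3.51 and 3.1 at P10, with log2 fold changes of -0.56 (SE 0.10, limma, adjusted p = 0.00116) at P5 and -2.33 (SE 0.10, limma, adjusted p = 4.04e-08) at P10. It thus stepped down at each passage examined, with no overlap. Gstm3 had 31.3, 20.3 and 20 FPKM at P0, 22.3, 27.1 and 25 at P5 and 4.85, 6.08 and 4.94 at P10 and fell at P10 (log2 fold change -1.96, SE 0.16, limma, adjusted p = 2.28e-06).

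Gstm2 differed from Gstm1 at P5, where it rose from 435, 445 and 435 FPKM to 599.8, 655 and 592 (log2 fold change 0.49, SE 0.054, limma, adjusted p = 4.92e-05), and then fell to 346, 341 and 318 FPKM at P10 (log2 fold change against P0 -0.39, SE 0.054, limma, adjusted p = 0.000106). Gstm4 and Gstm5 fell less at P10 against P0, with log2 fold changes of -0.36 (SE 0.13, limma, adjusted p = 0.0338) and -0.34 (SE 0.096, limma, adjusted p = 0.00939), and neither was called without replicate 2 or without replicate 3. Outside these 2 genes, the falls of the mu class at P10 were called in every alternative in which they were tested.

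Gsto1, the omega class enzyme that reduces dehydroascorbate with glutathione, rose most of all at P5. Gsto1 (chromosome 19, 47854970 to 47864790) had 241, 231 and 277 FPKM at P0, 695, 714 and 668 at P5 and 389, 385 and 396 at P10, with no overlap between groups. The log2 fold change was 1.47 (SE 0.066, limma, adjusted p = 1.32e-07) at P5 and 0.64 (SE 0.066, limma, adjusted p = 1.19e-05) at P10, with a fall of -0.82 (SE 0.066, limma, adjusted p = 5.42e-06) between them. The other omega gene, Gsto2, stayed near the filter with 0.188, 0.519 and 0.501 FPKM at P0, 1.1, 0.815 and 0.886 at P5 and 0.181, 0.261 and 0.338 at P10.

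The pi class genes moved in opposite directions at P10. Gstp1 had 677, 786 and 779.6 FPKM at P0, 875, 992 and 873 at P5 and 579.9, 599 and 546 at P10, and was higher than P0 at P5 (log2 fold change 0.29, SE 0.075, limma, adjusted p = 0.0084) and lower at P10 (log2 fold change -0.38, SE 0.075, limma, adjusted p = 0.00125). Gstp3, whose sequence above shares no long stretch with Gstp1, had 4.86, 6.72 and 5.07 FPKM at P0, 8.39, 7.45 and 6 at P5 and 11.9, 12.7 and 13.1 at P10. It rose at P10 with a log2 fold change of 1.06 (SE 0.12, limma, adjusted p = 3.28e-05) against P0 and 0.72 (SE 0.12, limma, adjusted p = 0.000705) against P5. Against P0 this fell short of 2-fold with size factors (0.99) and without replicate 3 (0.98). Its smaller rise at P5 (log2 fold change 0.34, SE 0.12, limma, adjusted p = 0.0401) was not called without replicate 1 (0.17, adjusted p = 0.333) or replicate 3 (0.41, adjusted p = 0.0635), nor with median-ratio size factors (0.26, adjusted p = 0.0993). Gstp2, nearly identical to Gstp1, was at 3.9, 3.56 and 3.88 FPKM at P0, 5.84, 4.08 and 3.58 at P5 and 4.71, 2.59 and 2.52 at P10, in overlapping groups, and was called at P10 against P5 with the replicate block alone (adjusted p = 0.0328).

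In the alpha class, Gsta4 had 489.8, 472 and 579 FPKM at P0, 569, 615 and 547 at P5 and 644, 631 and 649.9 at P10 and rose at P10 (log2 fold change 0.33, SE 0.077, limma, adjusted p = 0.00345), while Gsta3 fell. Gsta3 had 239, 253 and 220.3 FPKM at P0, 263, 262 and 257 at P5 and 129, 131 and 137 at P10, with a log2 fold change of -0.84 (SE 0.056, limma, adjusted p = 5.84e-07) against P0 and -0.98 (SE 0.056, limma, adjusted p = 6.57e-07) against P5. In both genes the values of P10 did not overlap those of P0. Gsta1 varied widely within groups, with 41, 15.1 and 57.3 FPKM at P0, 44.5, 17.4 and 13.4 at P5 and 12.5, 11 and 10.5 at P10. Its fall at P10 of -1.47 (SE 0.49, limma, adjusted p = 0.0211) was -1.03 with an adjusted p of 0.148 without replicate 3, and so rested on those libraries. Gsta2, 97.6% identical to Gsta1 in coding sequence, rose at P5 (log2 fold change 0.59, SE 0.11, limma, adjusted p = 0.00148) and fell from P5 to P10 (log2 fold change -0.86, SE 0.11, limma, adjusted p = 0.000118).

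The theta, kappa and zeta genes fell at P10 against P0 without exception among the 5 tested. Gstt1, which acts on small halogenated molecules, had 72.9, 109.5 and 92.1 FPKM at P0, 51.2, 56.8 and 52.8 at P5 and 42.8, 42.3 and 43.1 at P10, with log2 fold changes of -0.74 (SE 0.12, limma, adjusted p = 0.000523) at P5 and -1.06 (SE 0.12, limma, adjusted p = 2.36e-05) at P10. Gstt2 and Gstt3 rose slightly at P5 (0.32 and 0.18) and fell at P10 (-0.59 and -0.44), and the rise of Gstt3 was not called without replicate 1 (0.11, adjusted p = 0.268), without replicate 3 (0.20, adjusted p = 0.0986) or with size factors (0.09, adjusted p = 0.248). Gstk1, the mitochondrial and peroxisomal enzyme, had 8.5, 12.6 and 13.2 FPKM at P0, 13.2, 13.5 and 13.1 at P5 and 4.4, 4.04 and 4.71 at P10, and fell only at P10 (log2 fold change -1.18, SE 0.13, limma, adjusted p = 2.12e-05). Gstz1, the maleylacetoacetate isomerase of tyrosine breakdown, had 12, 9.94 and 9.62 FPKM at P0, 6.35, 5.9 and 6.14 at P5 and 8.2, 7.57 and 8.42 at P10, with its lowest values at P5 (log2 fold change -0.69, SE 0.08, limma, adjusted p = 7.26e-05).

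**Figure D4:**
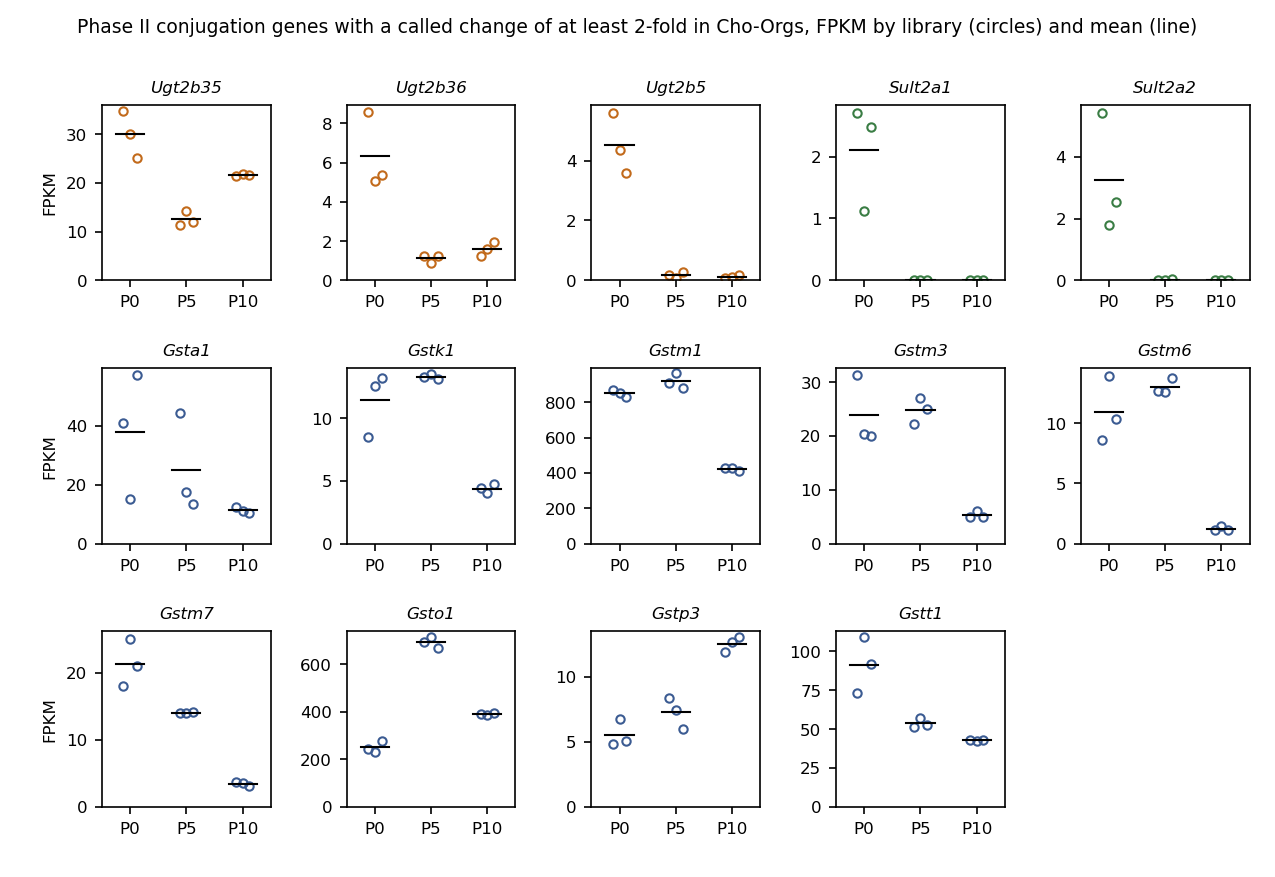
FPKM of the 14 genes with a called change of at least 2-fold in a Cho-Orgs comparison, 1 panel per gene, with circles for the 3 libraries of P0, P5 and P10 and a line for their mean. Gsto1 peaks at P5 and Gstp3 at P10, Ugt2b35 dips at P5, and Sult2a1, Sult2a2 and Ugt2b5 are near 0 at P5 and P10. These last genes passed the filter through P0 alone and had to differ.

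The Smart-Seq libraries compare 3 shapes of Hep-Orgs at P0 without replicates, so the values describe these libraries and no test was made. Among members with at least 5 FPKM in a library of the pair, the intermediate library had the highest levels of most genes. Of 26 such genes, 10 were at least 2-fold higher and 1 was at least 2-fold lower in the intermediate than in the round-like library, against 3.94% and 2.26% of all genes. Of 25 genes, 0 were at least 2-fold higher and 16 at least 2-fold lower in the grape-like than in the intermediate library, against 10.3% and 7.63%. Of 24 genes, 4 were at least 2-fold higher and 9 at least 2-fold lower in the grape-like than in the round-like library, against 13% and 8.93%. The median log2 ratios of these genes were 0.74, -1.10 and -0.08 in this order, beside -0.15, 0.02 and -0.18 for all genes, and the last of the members' medians was 0.0041 with size factors.

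UGT genes differed in order between the shapes. Given in the order grape-like, then intermediate, then round-like, Ugt1a1 had 8.41, 16.9 and 2.27 FPKM, Ugt2b5 had 8.81, 20.2 and 1.81 and Ugt2b36 had 10.8, 17.1 and 3.29, so that the round-like library was lowest in each. Ugt1a7c ran the other way with 7.72, 13.9 and 25.7 FPKM, and Ugt2b34 had 43.9, 125 and 119.9 FPKM, lowest in the grape-like library. SULT genes were low throughout, with 0.17, 1.42 and 8.15 FPKM for Sult1c2, 1.51, 3.19 and 3.35 for Sult1a1 and 1.41, 1.71 and 0.0104 for Sult1d1.

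GST genes held most of the summed FPKM of the 3 families in each Smart-Seq library, with sums of 1029, 2579 and 1933 FPKM in the same order. Gsta4 had 76.6, 390.1 and 336 FPKM, Gsta3 had 62.1, 165 and 178 and Gsto1 had 38.8, 103 and 166. These were lowest in the grape-like library. Gstm1 had 368, 790.3 and 385 FPKM and Gstp1 had 221, 533 and 398, each highest in the intermediate library, and Gstm3 had 15, 15.9 and 3.65 with its lowest value in the round-like one. Gsta1 was at 0.174, 14.2 and 4.53 FPKM. Markers of other cells differed between these libraries too. In that order of shapes, 10 hepatocyte markers summed to 5314, 8610.4 and 1280.3 FPKM, 7 cholangiocyte markers to 849.5, 3378 and 2772, 5 macrophage markers to 6931, 2095 and 1070.3, and 5 stellate cell markers to 843, 226.5 and 158.8. Endothelium markers summed to 60.6, 24.5 and 10.3 FPKM and proliferation genes to 117, 103 and 207, and none of these markers was at 0. Their part in the differences was not tested.

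**Figure D5:**
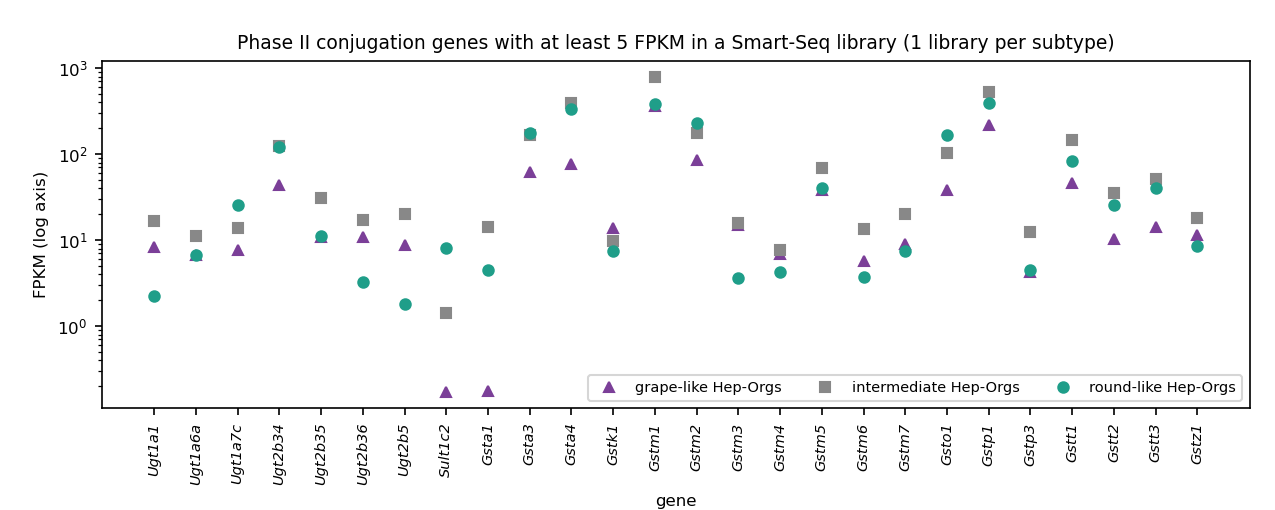
FPKM on a log axis of the 26 genes with at least 5 FPKM in a Smart-Seq library, with triangles for the grape-like, squares for the intermediate and circles for the round-like library, 1 library each. The squares are highest for most genes, whereas Ugt1a7c, Sult1c2, Gsta3, Gstm2 and Gsto1 have the circle on top, and Gstk1 has the triangle on top.

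The genes that supply, complete or reverse conjugation were followed beside the members. Of the 31 such genes tested in the hepatocyte table, 0 were called in each comparison (limma), with 3, 5, 2 and 3 at an unadjusted p under 0.05 in Hep-Orgs at P1, P5 and P10 against Pri-Hep and at P10 against P1. Limma-voom called 0, 0, 0 and 1 of them, beside 29, 34, 0 and 26 of all 10986 genes. In Cho-Orgs 35 were tested, of which 28 (80%) were called at P5 against P0 and 28 at P10 against P0, where 56.6% and 72.3% of all genes were called. Without replicate 3, 17 of those still tested were called at P5 against P0, where 4268 of all 11091 genes tested were called. Over all genes 34% rose and 22.6% fell at P5 and 41% rose and 31.3% fell at P10, which the counts of each list are to be read against. Abcc2, Abcg2, Hnmt, Mgst2 and Nr1i2 reached 1 FPKM in P0 alone and had to differ, so they are given without a test, although the counts of their lists include them. Without them 23 of 30 were called at P5 and 23 of 30 at P10. The 5 genes of glutathione supply all rose at P5 against P0, and 3 rose and 1 fell at P10. Slc7a11, the cystine importer, rose from 4.92 ± 2.27 FPKM at P0 to 33.7 ± 0.991 at P5 and 44.9 ± 0.361 at P10 (log2 fold change at P5 2.62, SE 0.20, limma, adjusted p = 5.28e-06). Gclc, the catalytic subunit of glutamate-cysteine ligase, was at 62.1 ± 4.52, 144 ± 16.7 and 73.1 ± 0.945 FPKM (log2 fold change at P5 1.20, SE 0.081, limma, adjusted p = 2.1e-06). Its fall from P5 to P10 was -0.96 (SE 0.081, limma, adjusted p = 7.73e-06).

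Of the 3 membrane glutathione transferases, Mgst1 and Mgst3 fell at P5 and at P10 against P0. Mgst1 was the highest, with 294 ± 35.4 FPKM at P0, 196 ± 22 at P5 and 210.3 ± 9.07 at P10. Mgst3 had a log2 fold change of -1.63 (SE 0.1, limma, adjusted p = 3.38e-07) at P10, and Mgst2 was at 2.05 ± 0.456, 0.717 ± 0.101 and 0.199 ± 0.0749 FPKM. Of the genes of UDP-glucuronate supply, 2 of 3 rose and 1 fell at P5, and 1 fell at P10, where the highest, Ugdh, had 93.7 ± 2.12 FPKM against 84.8 ± 12.2 at P0. Of the genes of sulfate donor supply, 1 of 4 rose and 1 fell at P5, and 1 rose and 3 fell at P10. The highest of these, Papss1, which makes PAPS, had 24.4 ± 2.3 FPKM at P0 and 16.8 ± 1.07 at P10.

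Of 5 exporters of conjugates, 2 rose and 2 fell at P5, and 3 rose and 2 fell at P10. Abcc2, the canalicular exporter of glucuronides and glutathione conjugates, was at 11.6 ± 1.8 FPKM at P0, 0.102 ± 0.0487 at P5 and 0.0297 ± 0.0162 at P10. Abcg2 was at 3.96 ± 0.758, 0.81 ± 0.0535 and 0.239 ± 0.0372 FPKM. Abcc3, which exports across the basolateral membrane, was the highest with 153 ± 38.3, 183 ± 7.01 and 216 ± 2.8 FPKM, and Abcc4 rose at P10 (log2 fold change 1.24, SE 0.093, limma, adjusted p = 1.4e-06).

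Of 9 other phase II enzymes 5 were tested, and 4 fell at P5 and 4 at P10. Gnmt fell at P5 (log2 fold change -1.55, SE 0.14, limma, adjusted p = 1.38e-05) and the histamine methyltransferase Hnmt was at 1.71 ± 0.654 FPKM at P0 and 0.0424 ± 0.0617 at P10. Of 4 deconjugating enzymes, 2 rose and 2 fell at P5, and 1 rose and 2 fell at P10. The steroid sulfatase Sts rose at P10 (log2 fold change 1.35, SE 0.093, limma, adjusted p = 8e-07) and the arylsulfatase Arsb fell (log2 fold change -1.34, SE 0.06, limma, adjusted p = 4.54e-08). Of 8 regulators 6 were tested, with 1 higher and 2 lower at P5, and 1 higher and 3 lower at P10. The xenobiotic receptor Nr1i2 (PXR) was at 3.5 ± 0.504 FPKM at P0, 0.422 ± 0.0364 at P5 and 0.265 ± 0.0446 at P10, while Nfe2l2 (NRF2), the highest of the regulators, had 108 ± 2.48, 115 ± 1.08 and 90.1 ± 1.49 FPKM. Hnf4a had 64.3 ± 10.6 FPKM at P0 and 56.4 ± 2.1 at P10 (limma, adjusted p = 0.128).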

How the data were processed

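Poly(A) RNA of the bulk cultures was sequenced in 150 bp pairs, and organoids picked by shape went through Smart-Seq. The authors deposited FPKM per gene in 3 tables. The submitters' processing notes name featureCounts 2.0.3 and edgeR 3.40.2. The aligner used for each table is not given in the sources used here. Columns were mapped to groups by the labels, and 0 columns of per-sample values were left unmapped.

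Genes with at least 1 FPKM in at least 3 libraries were tested as log2(FPKM + 1), with a pseudocount of 1, by limma 3.58.1 in R 4.3.3 (lmFit, contrasts, eBayes with trend, two-sided), fitting all groups of a table together. P-values were adjusted by Benjamini-Hochberg over all genes tested of the table, with a threshold of 0.05. Fold changes on this scale understate the change of low genes. Fragments were recovered from FPKM and gene length, exactly in the hepatocyte table and approximately elsewhere, and the floor of 3 fragments covers counting error only. The Smart-Seq ratios have no test. Python 3.11.15 was used for summaries.

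The genes, the lists and the cell type markers were chosen with earlier results of these data known. Named genes were the 2 highest of each family in each table and every gene with a called change of at least 2-fold in Cho-Orgs, and other genes were named, after their values were seen, to complete a class or list. Alternatives were a pseudocount of 0.1, other filters, a replicate block, rescaling to TPM or by median-ratio size factors, no trend in eBayes, fits of only 2 groups, limma-voom on the hepatocyte fragments, and leaving out each replicate. The counts of partner genes under these settings were added after seeing the data. The values of 1 gene of these lists are not reported here.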

Additional observations from a re-analysis of the deposited data

How the results depend on the processing

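Of 819 alternative log2 fold changes of the named genes in Cho-Orgs, 769 kept their direction and their side of the threshold, 13 passed it in addition, 30 no longer passed it and 7 changed sign, none of these from a called value. With a required log2 fold change of at least 1, the genes called became 6, 12 and 5 at P5 against P0, P10 against P0 and P10 against P5. The counts against P0 include Sult2a1, Sult2a2 and Ugt2b5, which had to differ. Leaving out a replicate took these genes out of the tests, and 15 to 19, 19 to 24 and 21 to 24 of the other 31 were called. With all replicates, 17, 25 and 24 of these 31 were called. Over all genes, 4268 to 5269, 6546 to 7392 and 5038 to 6168 of 11072 to 11093 tested were called without a replicate. With all replicates these were 6559, 8384 and 7132 of 11593. For Gstm3 at P5 against P0 the log2 fold change was -0.0064 with size factors and -0.0811 to 0.35 when a replicate was left out. The same ranges were -0.22 to 0.0117 for Ugt2b34 and -0.95 to 0.15 for Gsta1 at P5 against P0, and -0.0857 to 0.20 for Ugt1a1 at P10 against P5. Limma-voom made 1 call at P1 against Pri-Hep and 2 at P10 against P1, and 1 among the partner genes at P10 against P1. It called 29 and 26 of all 10986 genes in these 2 comparisons. The 28 partner genes called at P5 against P0 became 17 to 21 when a replicate was left out. Abcc2, Abcg2, Hnmt, Mgst2 and Nr1i2 were then not tested, and 23 of the other 30 were called with all replicates. The cause of these differences was not tested.

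Ratios of family sums moved with scaling but kept their side of 1. With size factors the GST sum in Cho-Orgs was 1.19 times P0 at P5 (1.27 as deposited) and 0.749 at P10 (0.793). Grape-like to round-like ratios were 0.541 (TPM) and 0.563 (size factors) for GST, 0.386 and 0.402 for SULT, and 0.578 and 0.601 for UGT. Intermediate to round-like ratios were 1.28 and 1.48 for GST, 0.611 and 0.707 for SULT, and 1.30 and 1.51 for UGT. The median log2 ratio of the 24 genes between grape-like and round-like libraries was 0.0041 with size factors.

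Samples with the same replicate number did not deviate together: the median correlation was -0.0063 over 9 Cho-Orgs pairs and -0.0016 over 18 hepatocyte pairs, although the replicate numbers are described as mice. With the replicate number as a block, 19, 30 and 24 genes were called in the 3 Cho-Orgs comparisons and 0 in each hepatocyte comparison. Ugt2b34 at P10 against P5 and Sult2b1 at P5 were no longer called, whereas Sult1a1 and Gsta5 at P10 against P0 and Gstp2 at P10 against P5 were. Depth limits the genes near 3 fragments per library, and 1 library per group limits the Smart-Seq values.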
